A study of Homo sapiens with 12 samples.

Results

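NF-κB signalling genes were followed through ATRA treatment of HL-60 cells: the Rel transcription factors NFKB1, NFKB2, RELA, RELB and REL, the inhibitors NFKBIA, NFKBIB and NFKBIE, the deubiquitinase and feedback inhibitor TNFAIP3 (A20), and the atypical IκB protein BCL3. They were chosen by symbol, with earlier results of these data known, and make up 10 of the 26364 genes in the count files. HL-60 is an established human line derived from a promyelocytic leukemia, grown in Iscove's medium with fetal bovine serum, and it can be driven towards neutrophil-like cells with ATRA (all-trans retinoic acid). ATRA is a ligand of the nuclear retinoic acid receptors. Bulk RNA was sequenced from untreated cells (0 h) and from cells kept in 1 µM ATRA for 4 h, 2 d or 4 d, with 3 replicates at each time and 12 libraries in all, numbered 1 to 3 within a time as the labels number the replicates. Untreated cells of the later times were not analysed here, so ATRA and time in culture cannot be told apart. The labels do not say whether replicates came from separate cultures, and p-values measure only the spread between these libraries, which may be technical.

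NF-κB factors are dimers of Rel proteins. In resting cells, IκB proteins hold the dimers in the cytoplasm. The canonical pathway frees them when the IκB kinase (IKK) complex marks IκB for degradation. The noncanonical pathway works through NIK and IKKα by trimming the NFKB2 precursor p100 to p52, the usual partner of RELB. Several inhibitors, NFKBIA and TNFAIP3 among them, are themselves NF-κB target genes, which gives the pathway negative feedback. In granulocytes and monocytes the pathway is known for control of adhesion molecules, chemokines and survival genes.

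Several of these promoters hold matches to the site that NF-κB itself binds. Of the 10 genes, 8 were matched by symbol in the RefSeq promoter table (build GRCh38.p14), and RELB and NFKBIE had no entry. The 250 bases before each gene's start were searched on both strands for the NF-κB consensus. A match was found in 4 of these 8 promoters, against 5.05% of all 27305 promoters in the table. The 4 are printed below 5′ to 3′ on the gene's strand, since they show where the matches lie; capitals mark the matched bases.
NFKB1, chr4:102501109-102501358, plus strand: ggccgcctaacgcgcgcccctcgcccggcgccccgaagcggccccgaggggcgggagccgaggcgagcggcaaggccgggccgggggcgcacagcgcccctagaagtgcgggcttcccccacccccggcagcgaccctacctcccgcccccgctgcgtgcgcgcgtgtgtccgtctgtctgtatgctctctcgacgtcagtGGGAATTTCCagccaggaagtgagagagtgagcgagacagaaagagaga
REL, chr2:60881324-60881573, plus strand: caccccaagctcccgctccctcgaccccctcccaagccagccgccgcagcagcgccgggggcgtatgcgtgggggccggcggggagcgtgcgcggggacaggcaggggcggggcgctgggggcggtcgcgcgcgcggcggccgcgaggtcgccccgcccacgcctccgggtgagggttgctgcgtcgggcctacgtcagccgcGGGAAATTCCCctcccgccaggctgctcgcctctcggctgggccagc
NFKBIA, chr14:35404750-35404999, minus strand: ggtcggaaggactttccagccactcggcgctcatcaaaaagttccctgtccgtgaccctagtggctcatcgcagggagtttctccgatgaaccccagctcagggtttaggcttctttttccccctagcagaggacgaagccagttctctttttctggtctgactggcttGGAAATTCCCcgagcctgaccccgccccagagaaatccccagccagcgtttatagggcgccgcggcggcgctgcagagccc
TNFAIP3, chr6:137867009-137867258, plus strand: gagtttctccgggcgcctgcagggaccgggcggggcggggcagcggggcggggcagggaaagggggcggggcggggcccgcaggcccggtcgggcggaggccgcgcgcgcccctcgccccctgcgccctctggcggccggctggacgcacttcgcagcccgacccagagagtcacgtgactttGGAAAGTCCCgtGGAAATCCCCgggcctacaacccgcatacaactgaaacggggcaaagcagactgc

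NFKB1 held GGGAATTTCC on its own strand, 49 to 40 bases before the start. REL held GGGAAATTCC 47 to 38 bases before the start, and a second match on the other strand overlapped it, shifted by 1 base. In NFKBIA the match lay on the other strand, 81 to 72 bases before the start. TNFAIP3 held a separate pair on the other strand, at 67 to 58 and 55 to 46 bases before the start. At least 2 matches, with overlapping ones as in REL also counted, were found in 0.645% of all promoters. A direct repeat of the retinoic acid receptor half-site with a spacer of 5 bases (AGGTCANNNNNAGGTCA) was found in none of the 8 promoters and in 0.00366% of all promoters. So rare an exact pattern would be missing from almost any 8 promoters, so its absence says nothing about these. A match is a description of the letters, not of a bound site.

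**Figure D1:**
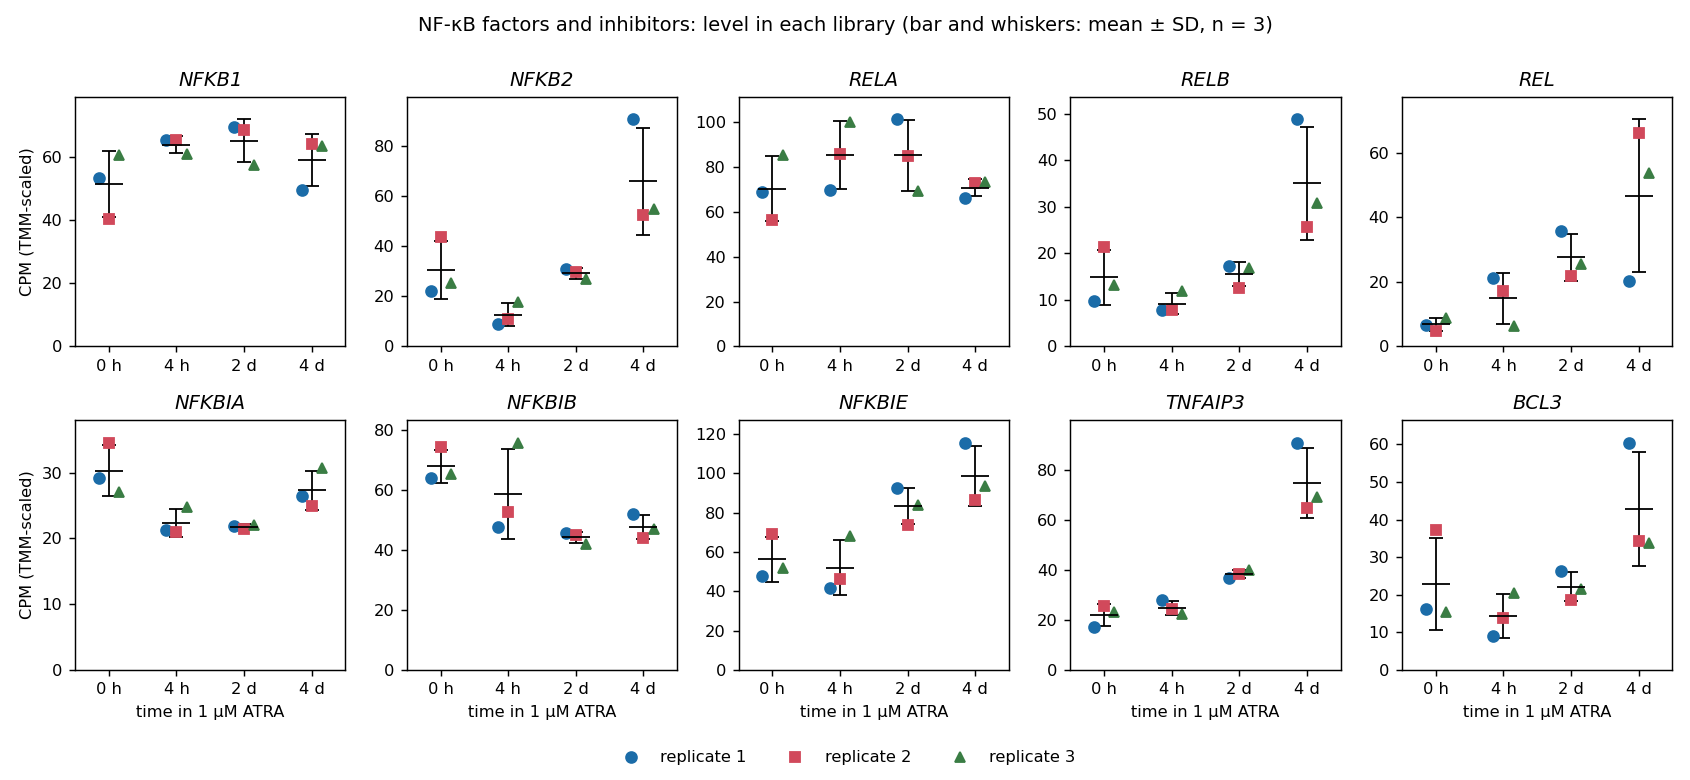
Level of each of the 10 genes, in TMM-scaled CPM (vertical axis from 0, scaled per gene), in each of the 12 libraries by time in 1 µM ATRA; symbols mark the replicate number, bars and whiskers mean ± SD, n = 3. TNFAIP3 lay at 17.1 to 25.6 CPM at 0 h and 64.5 to 90.8 CPM at 4 d, while RELA kept within 56.5 to 101 CPM at all times.

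Levels are given as CPM, read counts divided by the TMM-scaled size of the library on a common scale. A change was called at an adjusted p under 0.05 in edgeR's quasi-likelihood test, adjusted by Benjamini-Hochberg over the 12671 genes with enough reads to be tested. All 10 genes were tested, with 54 to 1182 reads per gene and library. Over the 4 times, 8 of the 10 differed in the F-test, which called 63.2% of all tested genes. TNFAIP3 (adjusted p = 4.12e-06) and NFKB2 (adjusted p = 0.000122) came first, followed by RELB (0.000496), REL (0.000866), NFKBIE (0.0037), BCL3 (0.0115), NFKBIB (0.0203) and NFKBIA (0.0269). NFKB1 (adjusted p = 0.27) and RELA (adjusted p = 0.347), which encode the p50 precursor and p65 subunits of the canonical dimer, were not called. The NFKBIA call was lost without any one of 4 h library 2 and 2 d libraries 1, 2 and 3, and NFKBIB was also lost without 2 d library 3, so that 6 to 8 of the 10 were called.

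For NFKB1 and RELA no comparison gave a call. NFKB1 lay at 53.3, 40.3 and 60.8 CPM in the 0 h libraries 1 to 3, at 65.5, 65.5 and 60.9 CPM at 4 h, at 69.7, 68.5 and 57.5 CPM at 2 d, and at 49.6, 64.2 and 63.7 CPM at 4 d. RELA, the main transactivating subunit, lay at 68.9, 56.5 and 85.4 CPM at 0 h, at 69.9, 85.7 and 100.1 CPM at 4 h, at 101, 84.8 and 69.3 CPM at 2 d, and at 66.3, 72.9 and 73.3 CPM at 4 d. At 4 h every NFKB1 library lay above every 0 h library, while the 4 d and 0 h libraries overlapped for both genes. At 4 d against 0 h the log2 fold change was 0.20 ± 0.17 (SE) for NFKB1 (adjusted p = 0.33) and 0.01 ± 0.19 for RELA (adjusted p = 0.965). At 4 h and 2 d both genes had log2 fold changes of 0.28 to 0.34, with adjusted p of 0.132 to 0.361.

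REL, which encodes the lymphoid and myeloid subunit c-Rel, had the largest change of the 10 genes in each of the 2 d and 4 d comparisons with 0 h. It lay at 6.8, 4.91 and 8.77 CPM at 0 h and at 21.3, 17.3 and 6.19 CPM at 4 h. The 2 d libraries gave 35.7, 21.7 and 25.5 CPM and the 4 d libraries 20.4, 66.2 and 53.7 CPM. Every 2 d and 4 d library was above every 0 h library, while replicate 3 at 4 h lay inside the 0 h range and replicate 1 at 4 d lay below all 2 d libraries. The rise from 0 h came to 2.02 ± 0.47 on the log2 scale at 2 d (4.05-fold, adjusted p = 0.00463) and 2.78 ± 0.47 at 4 d (6.86-fold, adjusted p = 0.000219). The 4 h value of 1.13 ± 0.47 was not called (adjusted p = 0.156). Over all alternatives its lowest value was 0.60, without 0 h library 2, 4 h library 1 and 4 d library 1. The highest was 1.52, without 4 h library 3, where it was called (adjusted p = 0.0394). It was also called with no filter on low counts (1.13, adjusted p = 4.00e-05). Leaving out 0 h library 2, 4 h library 3 and 4 d library 1 gave a call too (1.31, adjusted p = 0.000577). The fits without 4 h library 3 drop the lowest REL level of 4 h, so those calls depend on that choice of libraries. In the other alternatives it was not called, and the adjusted p reached 0.436. From 2 d to 4 d the difference of 0.76 ± 0.43 was not called (adjusted p = 0.215). In GENCODE 29 the exons of REL share 5702 bases with AC010733.2 on the same strand, a gene the files do not list, so reads counted for REL could belong to either.

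NFKB2 and RELB, the genes of the noncanonical dimer, rose late. NFKB2 lay at 22.2, 43.6 and 25.3 CPM at 0 h, at 8.98, 11.1 and 17.7 CPM at 4 h, at 31.1, 29.5 and 27 CPM at 2 d, and at 90.6, 52.2 and 55 CPM at 4 d. RELB lay at 9.84, 21.5 and 13.2 CPM at 0 h, at 7.88, 7.91 and 11.9 CPM at 4 h, at 17.2, 12.6 and 16.9 CPM at 2 d, and at 48.8, 25.7 and 30.7 CPM at 4 d. For both genes every 4 d library was above all 9 earlier ones, and replicate 1 was the highest at 4 d and replicate 2 the highest at 0 h. At 4 d against 0 h NFKB2 rose by 1.12 ± 0.29 on the log2 scale (2.17-fold, adjusted p = 0.00522) and RELB by 1.24 ± 0.30 (2.36-fold, adjusted p = 0.00307). From 2 d to 4 d the rises were 1.17 ± 0.29 for NFKB2 (adjusted p = 0.0105) and 1.17 ± 0.30 for RELB (adjusted p = 0.0114); the RELB call was lost without 2 d library 2 (1.05, adjusted p = 0.0571).

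NFKB2 was the one gene of the 10 called at 4 h, where 6.23% of all tested genes were called, 2% higher and 4.23% lower. Its 4 h libraries were all below its 0 h libraries. It fell by 1.27 ± 0.30 on the log2 scale (2.41-fold lower, edgeR adjusted p = 0.0265) and then rose by 1.21 ± 0.30 from 4 h to 2 d (adjusted p = 0.00747). At 2 d its log2 fold change against 0 h was -0.06 ± 0.29 (adjusted p = 0.898), with overlapping groups. The call at 4 h was lost without 0 h library 2 (-0.92, adjusted p = 0.0942), without 4 h library 1 (-1.11, adjusted p = 0.126) and without 4 h library 2 (-1.18, adjusted p = 0.123). Over all alternatives the value ran from -1.58 to -0.75. RELB had a 4 h value of -0.69 ± 0.31 (adjusted p = 0.184), which came to -0.33 without 0 h library 2. It came to -0.16 with an offset for GC content and length. With no filter on low counts RELB was called lower at 4 h (-0.70, edgeR adjusted p = 0.0297).

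The inhibitors did not move together. NFKBIA, the classical IκBα, lay at 29.2, 34.6 and 27.1 CPM at 0 h and at 21.2, 20.9 and 24.8 CPM at 4 h. At 2 d it lay at 21.9, 21.4 and 22 CPM, and at 4 d at 26.4, 24.9 and 30.7 CPM. Every 4 h and 2 d library lay below every 0 h library, and the 4 d libraries overlapped the 0 h range. The log2 fold change was -0.44 ± 0.15 at 4 h (adjusted p = 0.0898) and -0.15 ± 0.15 at 4 d (adjusted p = 0.40), neither of them called. At 2 d NFKBIA fell by 0.48 ± 0.15 (1.39-fold lower, adjusted p = 0.0223). That call was lost without 0 h library 2 (-0.37, adjusted p = 0.0602) and without each of 2 d libraries 1, 2 and 3 (-0.48, -0.47 and -0.48, adjusted p = 0.0661, 0.0668 and 0.0583).

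NFKBIB, which encodes IκBβ, was lower in the later libraries. It lay at 64, 74.4 and 65.4 CPM at 0 h and at 47.7, 52.7 and 75.9 CPM at 4 h. The 2 d libraries gave 45.5, 45.1 and 42.1 CPM and the 4 d libraries 52.1, 44.1 and 47 CPM. All 2 d and 4 d libraries were below all 0 h libraries, and 4 h library 3 was the highest of the 12. NFKBIB fell by 0.62 ± 0.17 at 2 d (1.53-fold lower, adjusted p = 0.013) and by 0.51 ± 0.17 at 4 d (1.42-fold lower, adjusted p = 0.0204). The 2 d call was lost without 2 d library 3 (-0.58, adjusted p = 0.0509), and the 4 d call without 4 d library 2 (-0.47, adjusted p = 0.0636) or 3 (-0.50, adjusted p = 0.0609).

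NFKBIE, which encodes IκBε, went the other way from NFKBIB. It lay at 47.6, 69 and 51.9 CPM at 0 h and at 41.5, 46.4 and 68 CPM at 4 h. At 2 d it lay at 92.4, 73.9 and 84 CPM, and at 4 d at 116, 86.3 and 93.6 CPM. All 6 libraries of 2 d and 4 d were above all 6 of 0 h and 4 h. The rise from 0 h was 0.57 ± 0.21 at 2 d (1.48-fold, adjusted p = 0.0475) and 0.81 ± 0.21 at 4 d (1.75-fold, adjusted p = 0.00458), and from 4 h to 2 d it was 0.68 ± 0.21 (adjusted p = 0.0217). The 2 d call against 0 h was close to the threshold and was lost without any one of 0 h libraries 1 and 3, 4 h libraries 1 and 2, 2 d libraries 1, 2 and 3 and 4 d libraries 2 and 3. The values were then 0.47 to 0.65 and adjusted p of 0.0545 to 0.152. The step from 4 h to 2 d was lost without 4 h library 1 or 2 or 2 d library 1 or 3. The values were then 0.54 to 0.68 and adjusted p of 0.0564 to 0.0947. As a ratio of reads per kilobase, NFKBIE to NFKBIB stood at 0.67 to 0.834 in the 0 h libraries, at 0.783 to 0.807 at 4 h, at 1.48 to 1.83 at 2 d and at 1.76 to 2.00 at 4 d. The order of the 2 inhibitors had thus switched by 2 d in every library on the scale of union exon length.

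TNFAIP3, a ubiquitin-editing enzyme that shuts off signalling upstream of IKK, had the smallest p-value of the 10 genes in the F-test. It lay at 17.1, 25.6 and 23.3 CPM at 0 h and at 27.7, 24.2 and 22.5 CPM at 4 h. The 2 d libraries gave 36.9, 38.1 and 39.9 CPM and the 4 d libraries 90.8, 64.5 and 69 CPM. The 4 h libraries overlapped those of 0 h, and each later time lay wholly above the time before it. Against 0 h the log2 fold change was 0.17 ± 0.18 at 4 h (adjusted p = 0.544), and TNFAIP3 rose by 0.80 ± 0.18 at 2 d (1.74-fold, adjusted p = 0.0038) and by 1.77 ± 0.18 at 4 d (3.40-fold, adjusted p = 2.79e-06). The steps were 0.63 ± 0.18 from 4 h to 2 d (adjusted p = 0.0148) and 0.97 ± 0.18 from 2 d to 4 d (adjusted p = 0.00157). The first of these steps was lost without 4 h library 2 (0.61, adjusted p = 0.0526) or 3 (0.54, adjusted p = 0.06).

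BCL3, which binds p50 and p52 homodimers in the nucleus, lay at 16.2, 37.1 and 15.5 CPM at 0 h and at 8.88, 13.7 and 20.3 CPM at 4 h. At 2 d it lay at 26.4, 18.6 and 21.5 CPM, and at 4 d at 60.5, 34.2 and 33.8 CPM. Replicate 2 at 0 h was above 2 of the 3 libraries of 4 d, so these groups overlapped. BCL3 rose by 0.90 ± 0.36 from 0 h to 4 d (1.86-fold, adjusted p = 0.0473), just inside the threshold. The call was lost without any one of 0 h libraries 1 and 3, 4 h libraries 1 and 2, 2 d libraries 1, 2 and 3 and 4 d libraries 1 and 2, with adjusted p of 0.0502 to 0.196. The value was 0.56 without 4 d library 1 and 1.44 without 0 h library 2. The differences from 0 h of -0.68 ± 0.37 at 4 h and -0.05 ± 0.36 at 2 d were not called (adjusted p = 0.255 and 0.928). At 4 h BCL3 was called lower with no filter on low counts (-0.69, edgeR adjusted p = 0.021). With an offset for GC content and length its 4 h value was -0.12.

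**Figure D2:**
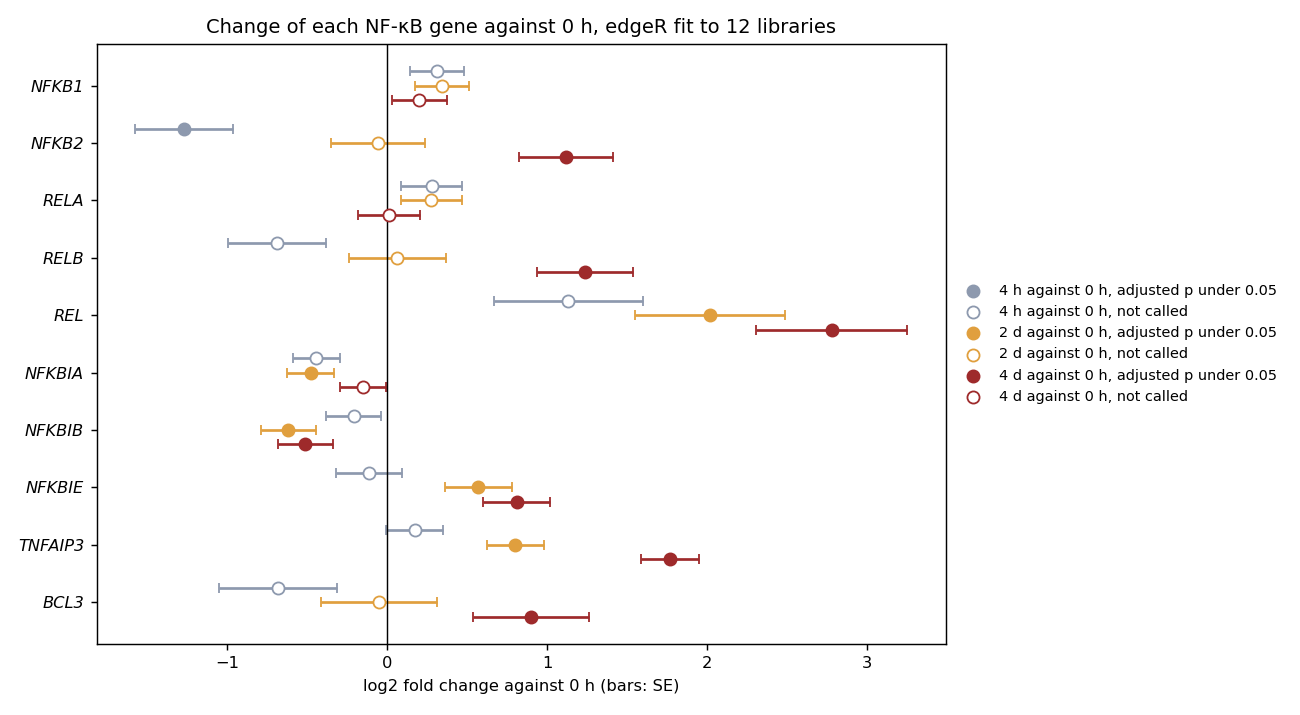
Log2 fold change of each of the 10 genes at 4 h, 2 d and 4 d against 0 h from edgeR (horizontal axis), with bars of 1 SE; filled points have an adjusted p under 0.05 and open points do not. One point is filled at 4 h (NFKB2, -1.27), 5 at 2 d and 7 at 4 d, from -0.51 (NFKBIB) to 2.78 (REL).

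Counted over the 10 genes, 0 were called higher and 1 lower at 4 h by edgeR, and 1 and 3 had an unadjusted p under 0.05; DESeq2 called 2 genes, NFKB2 and NFKBIA. At 2 d 3 rose and 2 fell, where 35.6% of all tested genes were called, 16.9% higher and 18.7% lower. At 4 d 6 rose and 1 fell, where 57.8% of all were called, 28.1% higher and 29.7% lower. The median log2 fold change of the 10 was -0.16, 0.17 and 0.85 at 4 h, 2 d and 4 d, beside 0.00, -0.02 and 0.00 over all tested genes. From 4 h to 2 d 3 rose and 0 fell (34.5% of all tested genes called, 16.5% higher and 18% lower), and from 2 d to 4 d 3 rose and 0 fell (26.6% called, 13.1% higher and 13.5% lower). Groups that did not overlap were found for 3 of the 10 genes at 4 h (25.5% of all tested genes), for 5 at 2 d (51%), for 6 at 4 d (59%), for 6 from 4 h to 2 d (53.1%) and for 5 from 2 d to 4 d (48%). The number called at 4 h was 0 without 0 h library 2 or 4 h library 1 or 2, and 2 without 4 h library 3. At 2 d it was 3 without 2 d library 1 or 2 and 2 without 2 d library 3. From 4 h to 2 d it was 1 without 4 h library 2 and 2 without 4 h library 3 or 2 d library 1 or 3.

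The libraries differed in ways the times do not account for, and several of the 10 genes moved with them. Reads in genes ran from 7866757 to 13658177 per library, and the share of reads given to no gene from 22.9% to 35.6%. In 4 h library 1, 22265 genes had a read, against 15198 to 15798 in the other libraries. Against the other libraries of their time, 0 h library 2, 4 h library 3 and 4 d library 1 had higher levels of GC-rich genes, by 0.519, 0.400 and 0.342 on the log2 scale per 10 points of GC content, while the slope was -0.364 to 0.0503 in the other 9. BCL3 (65.7% GC), RELB (65% GC) and NFKB2 (61.5% GC) lay above 88.7% or more of the tested genes in GC content, as did NFKBIB (62.8% GC), and REL (39.5% GC) above 8.57%. NFKBIE (61.4% GC) and RELA (60.3% GC) lay above 88.3% and 85.0%.

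**Figure D3:**
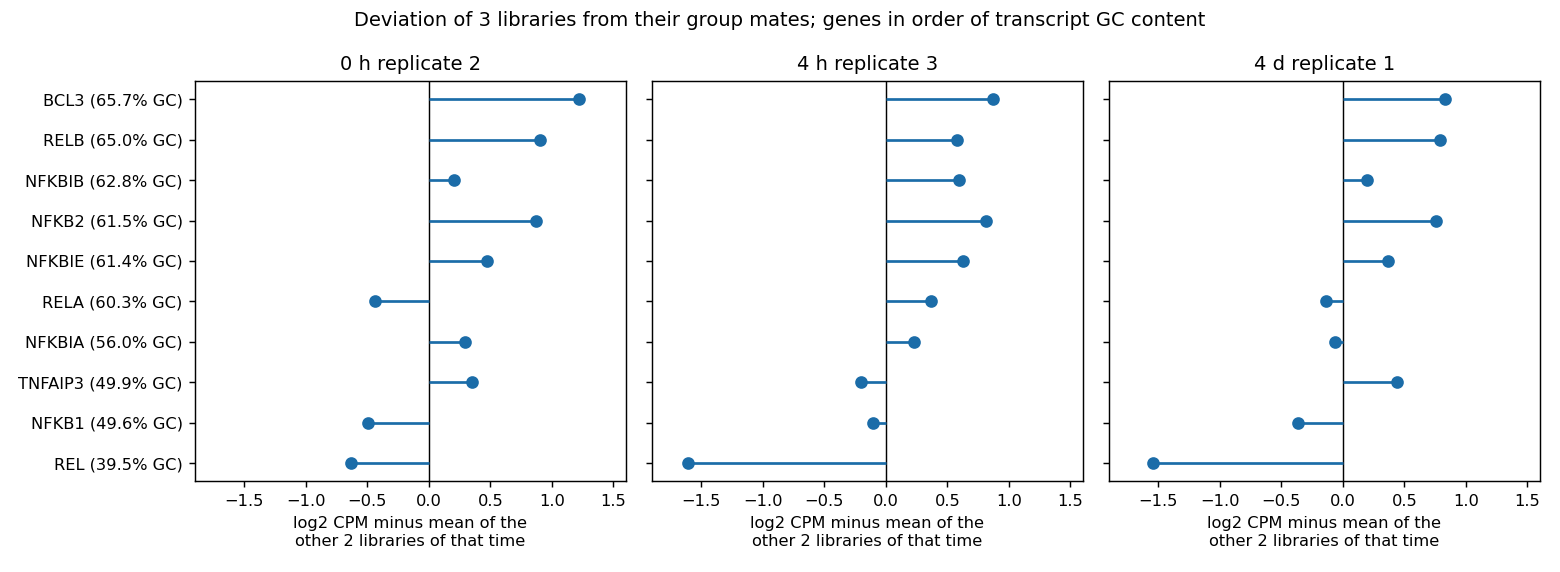
Deviation of 0 h library 2, 4 h library 3 and 4 d library 1 from the mean of the other 2 libraries of their time (log2 CPM, horizontal axis) for the 10 genes, ordered by the GC content of their transcripts. BCL3, RELB, NFKB2, NFKBIE and NFKBIB lay above their mates in all 3 libraries, and REL and NFKB1 below. In 4 h library 3 and 4 d library 1 REL deviated by -1.61 and -1.54.

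In those 3 libraries BCL3 stood 1.22, 0.87 and 0.83 above its mates on the log2 scale, NFKB2 0.87, 0.82 and 0.76, and RELB 0.90, 0.58 and 0.79. REL stood at -0.63, -1.61 and -1.54. Of the other GC-rich genes, NFKBIE (0.47, 0.63 and 0.36) and NFKBIB (0.20, 0.60 and 0.19) also stood above their mates in all 3. In 4 h library 3 these 2 genes deviated more than RELB. RELA did not go in 1 direction, with -0.44, 0.37 and -0.14. With per-library offsets for transcript GC and length, the SD of the 0 h libraries went from 0.514 to 0.123 on the log2 scale for NFKB2. It went from 0.561 to 0.139 for RELB and from 0.705 to 0.189 for BCL3, and was also lower for NFKB1, REL, NFKBIA and NFKBIE. However, it rose from 0.298 to 0.588 for RELA, from 0.118 to 0.316 for NFKBIB and from 0.301 to 0.365 for TNFAIP3. The offset was fitted to deviations from the mean over all 12 libraries. It can thus also take up differences between times that go with GC content or length. With that offset the 4 d rises were 1.00 for NFKB2, 1.30 for RELB, 2.36 for REL and 0.99 for BCL3. All were called (adjusted p = 1.75e-05, 1.00e-06, 2.45e-05 and 6.35e-05). The fall of NFKB2 at 4 h was then -0.91 (adjusted p = 0.00101). RELB at 2 d was called with the offset (0.35, adjusted p = 0.0493).

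Without 0 h library 2, 4 h library 3 and 4 d library 1, the number of the 10 called was 4 at 4 h (REL, NFKB2, NFKBIA and NFKBIB), 6 at 2 d and 7 at 4 d. The same fit called 3192, 6761 and 8719 of all genes. Without 0 h library 2, 4 h library 1 and 4 d library 1 the number of the 10 was 1, 6 and 7, and 677, 5857 and 8159 of all genes were called. Over all 12 libraries the numbers were 1, 5 and 7 of the 10 and 790, 4512 and 7330 of all genes. In both of these fits BCL3 at 2 d was called higher (0.47, adjusted p = 0.027, and 0.48, adjusted p = 0.0436), where it stood at -0.05 over all libraries. Both fits leave out 0 h library 2, in which BCL3 stood 1.22 above its mates on the log2 scale, so these calls depend on that choice of libraries. NFKB2, RELB, REL, NFKBIE and TNFAIP3 kept their 4 d calls in all 23 alternatives run.

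Per kilobase of union exon length (GENCODE 29, matched by symbol), the mean levels at 0 h put NFKBIB (29.2) and NFKBIE (21.8) first, followed by RELA (12.9), NFKBIA (12.8), NFKB1 (8.23), BCL3 (7.07), NFKB2 (6.77), RELB (4.89), TNFAIP3 (4.35) and REL (0.518 CPM per kilobase). At 4 d the order was NFKBIE (38.2), NFKBIB (20.5), TNFAIP3 (14.8), NFKB2 (14.7), BCL3 (13.2), RELA (12.96), RELB (11.6), NFKBIA (11.5), NFKB1 (9.46) and REL (3.55 CPM per kilobase). Per kilobase of coding length and over the 12 libraries the extremes were NFKBIB (51.2) and RELB (10.8), and REL (12.9) stood next to NFKB2 (12.8), so the place of REL depends on the length used; the annotation used for the counting is not given in the sources used here. In GENCODE 29 the exons of TNFAIP3, RELA and NFKBIB overlap those of a gene on the opposite strand by 95, 9 and 40 bases, and BCL3 overlaps MIR8085 by 65 bases, and whether the counting used strand is not given either. On the union scale the 3 IκB genes summed to 1.66 to 2.16 times the 5 Rel genes at 0 h, 1.52 to 1.91 times at 4 h, 1.44 to 1.69 times at 2 d and 1.29 to 1.39 times at 4 d. On that scale the 4 d libraries were below all the others in the ratio, but this order depends on the length used. REL stood at 0.0361 to 0.0426 of RELA at 0 h and at 0.127 to 0.377 of it at 4 d.

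Across the 12 libraries, log2 CPM of NFKB2 and RELB gave Pearson r = 0.958, and within times r = 0.902; NFKB2 and BCL3 gave 0.944 and 0.952. These 3 genes share a high GC content and the libraries in which GC-rich genes stood higher, and the correlations are a description. High values were not limited to them: NFKB2 and NFKBIE gave 0.857 and 0.936. For NFKB2 and NFKBIB they were -0.12 and 0.87, and for NFKB2 and REL 0.30 and -0.84. Among the 8748 tested genes with a mean of at least 10 CPM, the levels most like those of NFKB2 were of ATN1 (r = 0.992), ST6GALNAC6 (r = 0.989) and VEGFB (r = 0.986), with GC contents of 62.8%, 60.0% and 62.3%. Those most like TNFAIP3 were of TIA1 (r = 0.983, 39.0% GC), DAPK1 (r = 0.983, 51.9% GC) and SLC4A3 (r = 0.98, 63.2% GC). ATN1 went from 52.7 CPM at 0 h to 22.1, 55.9 and 103 CPM at 4 h, 2 d and 4 d, and TIA1 from 68.7 to 71.9, 104 and 154 CPM.

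**Figure D4:**
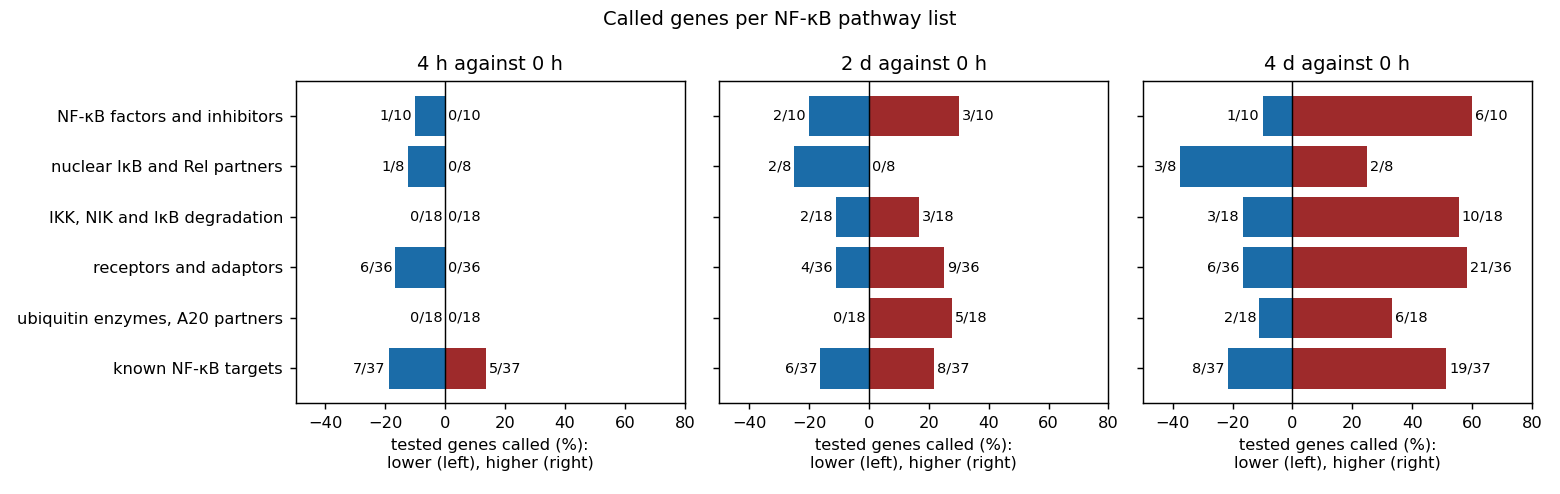
Share of tested genes called lower (left of 0) and higher (right) by edgeR at an adjusted p under 0.05, in the 10 NF-κB genes and 5 further pathway lists, at 4 h, 2 d and 4 d against 0 h; labels give the number called over the number tested. At 4 d, where 28.1% of all tested genes were called higher, the number was 21 of 36 receptors and adaptors, 19 of 37 known targets, 10 of 18 genes of the IKK list, 6 of 18 of the ubiquitin list and 2 of 8 nuclear IκB proteins and Rel partners. Genes that lists share, such as TRAF1, count in each.

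The genes around this core were counted by list, to be read against the 6.23%, 35.6% and 57.8% of all tested genes called at 4 h, 2 d and 4 d. The lists share some genes, so their counts are not independent. TRAF1, for example, counts both among the receptors and adaptors and among the known targets. Of 18 tested genes of the IKK complex, NIK and IκB degradation, 3 rose and 2 fell at 2 d, and 10 rose and 3 fell at 4 d, where the list's median was 0.45. Its 5 calls of 18 at 2 d were a smaller share than the 35.6% of all tested genes. None was called at 4 h by edgeR (7 had an unadjusted p under 0.05), and DESeq2 called 2. TANK, an adaptor of the IKK-related kinases, rose by 1.16 ± 0.15 at 2 d and 1.985 ± 0.154 at 4 d, from 12.8 ± 0.717 CPM (SD, n = 3) at 0 h to 50.8 ± 1.09 CPM. The kinase gene MAP3K3 rose by 1.01 ± 0.16 and 2.02 ± 0.16, and TAB2, a TAK1 partner, rose by 0.74 ± 0.22 at 4 d. SKP1 and CUL1, parts of the ubiquitin ligase that acts on phosphorylated IκB, fell by 1.10 ± 0.28 and 0.80 ± 0.13 at 4 d. Of the catalytic IKK genes, IKBKB had -0.29 ± 0.18, 0.16 ± 0.18 and 0.64 ± 0.18 at 4 h, 2 d and 4 d and was called at 4 d (adjusted p = 0.0092), where the GC and length offset gave 0.28 (adjusted p = 0.16). CHUK had 0.51 ± 0.22, 0.44 ± 0.22 and 0.24 ± 0.22, none of them called (adjusted p = 0.165, 0.131 and 0.356).

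Of 36 tested receptors and adaptors upstream of IKK (42 listed), 0 rose and 6 fell at 4 h (5 and 9 at an unadjusted p under 0.05; DESeq2 called 8). There 9 rose and 4 fell at 2 d, 13 of 36 against 35.6% of all tested genes, and 21 rose and 6 fell at 4 d, against 28.1% and 29.7%. The list's medians were -0.11, 0.29 and 0.59. MYD88, the adaptor of Toll-like and IL-1 receptors, rose by 1.46 ± 0.15 at 2 d and 2.45 ± 0.15 at 4 d, from 44.3 ± 3.10 to 241 ± 25.1 CPM. IL1RAP and TLR4 rose by 1.75 ± 0.33 and 1.09 ± 0.20 at 2 d, and TNFRSF1B and TRAF1 by 1.55 ± 0.16 and 1.69 ± 0.21 at 4 d. CD14, the co-receptor for lipopolysaccharide, fell by 2.84 ± 0.20 at 4 h and 2.45 ± 0.20 at 2 d, and TLR9 fell by 2.24 ± 0.25 at 2 d and 1.75 ± 0.24 at 4 d. TRAF2 and IRAK1 fell by 1.29 ± 0.28 and 0.83 ± 0.20 at 4 d. TNFRSF1A, the main TNF receptor, had -0.19 ± 0.16, 0.27 ± 0.16 and 0.60 ± 0.16 at the 3 times and rose at 4 d (adjusted p = 0.00661). The number called at 4 h was 3 without 0 h library 2, 3 without 4 h library 1 and 2 without 4 h library 2.

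Of 18 tested ubiquitin chain enzymes and A20 partners (19 listed), 5 rose and 0 fell at 2 d (1 fell at an unadjusted p under 0.05; DESeq2 called 6 in all), and 6 rose and 2 fell at 4 d. These 5 and 8 of 18 were smaller shares than the 35.6% and 57.8% of all tested genes. At 4 h edgeR and DESeq2 both called 0, and 2 had an unadjusted p under 0.05. CYLD, a deubiquitinase that also restrains NF-κB signalling, rose by 0.96 ± 0.17 at 2 d and 1.70 ± 0.17 at 4 d, from 28.6 ± 4.08 to 93.2 ± 11.1 CPM. ZFAND5 rose by 0.65 ± 0.14 at 2 d, and TNFAIP8L2 and N4BP1 rose by 1.19 ± 0.19 and 1.16 ± 0.15 at 4 d. UBE2N, the ubiquitin-conjugating enzyme of K63-linked chains, fell by 1.13 ± 0.19 at 4 d. Of 8 tested nuclear IκB proteins and Rel partners (9 listed), 0 rose and 1 fell at 4 h (0 and 1 at an unadjusted p under 0.05; DESeq2 called 1). At 2 d 0 rose and 2 fell (0 and 3 unadjusted; DESeq2 called 2), and 2 rose and 3 fell at 4 d. AKIRIN2 rose by 0.90 ± 0.16 at 4 d. COMMD1 fell by 0.86 ± 0.16 at 2 d and 1.13 ± 0.16 at 4 d, and NKRF fell by 0.65 ± 0.15 and 0.75 ± 0.15.

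Known NF-κB target genes went both ways. Of 37 tested (48 listed), 5 rose and 7 fell at 4 h, 8 rose and 6 fell at 2 d, and 19 rose and 8 fell at 4 d, with medians of -0.07, -0.14 and 0.43. The shares called over all tested genes were 6.23%, 35.6% and 57.8%, so that the 14 of 37 at 2 d lay near the background. ICAM1, an adhesion molecule, lay at 1.93 ± 0.344 CPM at 0 h (SD, n = 3), 8.24 ± 2.23 at 4 h, 37.7 ± 3.02 at 2 d and 68.4 ± 4.98 at 4 d. It rose by 2.08 ± 0.22, 4.28 ± 0.22 and 5.14 ± 0.22 on the log2 scale (edgeR adjusted p = 0.000133, 1.78e-08 and 1.71e-09). The chemokine gene CCL2 lay at 15.7 ± 2.87, 66.5 ± 6.34, 88.8 ± 16.7 and 149 ± 9.24 CPM at the same times. It rose by 2.09 ± 0.19, 2.50 ± 0.19 and 3.25 ± 0.19. Both rose at 4 h, when TNFAIP3 and NFKBIA, also NF-κB targets, had 0.17 and -0.44, neither of them called; the difference between these genes was not tested. TNFAIP2 rose by 1.93 ± 0.24 at 2 d and 2.91 ± 0.25 at 4 d. BCL2A1, an antiapoptotic target, fell by 1.28 ± 0.18 at 4 h and then rose above 0 h, by 0.97 ± 0.17 at 2 d and 2.61 ± 0.18 at 4 d. Its levels were 26.0, 10.7, 51.2 and 159 CPM at the 4 times. CD44 fell by 1.88 ± 0.24 at 2 d, and at 4 d its difference from 0 h was 0.21 ± 0.23 (adjusted p = 0.435), with 71.6, 34.5, 19.4 and 83.1 CPM. GADD45B fell by 1.01 ± 0.23 at 2 d and 1.70 ± 0.24 at 4 d. CD83 and TNFAIP8 fell by 1.41 ± 0.18 and 1.09 ± 0.22 at 4 d. The number called at 4 h was 7 without 4 h library 1 and 6 without 4 h library 2.

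Several further pathway calls were lost when a single library was left out, for most of them any one of several. At 4 h NFKBID (-1.19 ± 0.33, adjusted p = 0.0486) was lost without 0 h library 2 (-0.69, adjusted p = 0.201), either of 4 h libraries 1 and 2, any 2 d library or either of 4 d libraries 2 and 3. At 4 h TLR9 (-0.85 ± 0.23, adjusted p = 0.0471) was lost without 0 h library 2 or 3, 4 h library 1 or 2, any 2 d library or 4 d library 2 or 3 (adjusted p up to 0.227 over all alternatives). TRAF1 (-1.07 ± 0.22, adjusted p = 0.014) was lost without 4 h library 1 (up to 0.103). CXCL8 (0.85 ± 0.17, adjusted p = 0.0127) was lost without 4 h library 1 or 2 (up to 0.0695). CD44 (-1.05 ± 0.23, adjusted p = 0.0169) was lost without 0 h library 1 or 4 h library 1 or 2 (up to 0.0762). At 2 d IKBKE (0.49 ± 0.16, adjusted p = 0.0307) was lost without 0 h library 1 or 3 or 2 d library 1 or 2 (up to 0.126). MAP3K14, the gene of NIK (-0.59 ± 0.19, adjusted p = 0.0283), was lost without 0 h library 2 or 3 or 2 d library 2 or 3 (up to 0.11). SKP1 at 2 d (-0.76 ± 0.27, adjusted p = 0.0437) was lost without 0 h library 1 (-0.45, adjusted p = 0.212) or 3, 4 h library 2 or 3, 2 d library 1 or 3 or 4 d library 3. OTUD7B at 2 d (0.84 ± 0.30, adjusted p = 0.0414) was lost without 0 h library 1 or 2, 4 h library 2, any 2 d library or 4 d library 2 (up to 0.172). At 4 d IKBKAP (-0.40 ± 0.15, adjusted p = 0.0315) was lost without 0 h library 3, 2 d library 2 or 4 d library 2 or 3 (up to 0.132). SPATA2 (-0.49 ± 0.19, adjusted p = 0.0436) was lost without 0 h library 2 or 3, 4 h library 2, 2 d library 3 or 4 d library 2 or 3 (up to 0.129). The number of genes called at 2 d was 2 or 3 in the IKK list without 0 h library 1 or 3 or any 2 d library. It was 2 or 3 in the ubiquitin list without 0 h library 1 or 3, 4 h library 2, any 2 d library or 4 d library 2.

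Genes that report on the treatment and on the cells also changed. TGM2, a retinoic acid target, went from 0.319 CPM at 0 h to 25.4, 916 and 1080 CPM, and HIC1 from 1.55 to 93, 603 and 793 CPM. DHRS3 had 0 reads at 0 h and 5.74, 76.4 and 143 CPM later, and RXRA fell by 1.10 ± 0.18 at 2 d and 1.02 ± 0.18 at 4 d. The 8 promyelocyte markers summed to 32110 to 45904 CPM at 0 h, 41341 to 69107 at 4 h, 29683 to 37721 at 2 d and 8570 to 9858 at 4 d, mostly from MPO. At 4 d 7 of them were called lower and CD33 higher (79.8 to 117 CPM). The 11 granulocyte maturation markers summed to 766 to 1036, 832 to 1028, 2812 to 2922 and 5200 to 6947 CPM at the 4 times. At 4 d 8 were called higher and LTF lower (18.0 to 2.34 CPM). The 10 monocyte and macrophage markers summed to 74.1 to 94.9, 51.0 to 69.3, 277 to 309 and 400 to 482 CPM. Of the 5 tested, 3 were called higher at 4 d and 2 lower (CD14 and MARCO). Among them CSF1R rose from 1.93 to 63.9 CPM, while MRC1 had 0 reads and CD163 had none at 4 d. The 9 eosinophil, basophil or mast markers summed to 5336 to 7962, 2791 to 4749, 620 to 743 and 712 to 740 CPM. Most of the sum at 0 h was PRG2, which fell from 5817 to 228 CPM at 4 d. Of the 8 tested, 5 were called lower at 4 d and 2 higher, CCR3 (0.584 to 232 CPM) and CLC (123 to 188 CPM). At 0 h and 4 d the lymphoid markers summed to 63.5 to 85.8 and 58.8 to 69.8 CPM, and the stromal or epithelial markers to 7.6 to 11.1 and 13 to 21.2 CPM. The part of these shifts in the changes of the NF-κB genes was not tested, and in bulk RNA a change in the number of cells of a type and a change in RNA per cell cannot be told apart.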

How the data were processed

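Gene counts of 12 RNA-seq libraries of HL-60 cells, 3 per time, were analysed. The deposited counts are whole numbers of reads per gene, not normalized. Per the submitters' processing notes, FastQC, Trim Galore 0.6.7, HISAT2 2.1.0 and HTSeq 1.99.2 were used with hg19. Not given in the sources used here: annotation, strandedness and kit. Reads given to no gene (22.9% to 35.6%) were left out. In R 4.3.3, edgeR 4.0.16 kept genes by filterByExpr (12671 genes, 99.9% of gene reads), scaled by TMM and fitted 1 mean per time to all 12 with 8 residual degrees of freedom. The SE of a log2 fold change came from the change and its F statistic, and log2 CPM used a prior count of 2. Replicates differed by more than counting error (chi-square per degree of freedom 3.47 to 98).

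The 10 genes and all lists were chosen with earlier results of these data known, and several NF-κB values had been seen. From each list, up to 3 called genes per direction and time with the largest change at a mean of 10 CPM or more were named, with ICAM1, CCL2, TNFRSF1A, IKBKB and CHUK at every time, and for the 2 genes with the smallest F-test p the 3 genes of highest r. Alternatives used DESeq2 1.42.0, other scaling and filters, fewer libraries, a replicate term, and an offset for GC content and length from GENCODE 29 (GRCh38, 94.5% of tested genes matched by symbol). Promoters came from RefSeq. The fit was tested on simulated data. The single marker genes and the later values of BCL2A1 and CD44 were chosen after their values were seen. A few genes that the naming rule or the lists would give are not reported here.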

Additional observations from a re-analysis of the deposited data

How the results depend on the processing

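With 3 libraries per time, the 2 d and 4 d values of REL and TNFAIP3 and the 4 d values of NFKB2, RELB and NFKBIE kept their calls in all alternatives run. The 4 h counts and the smaller changes depended on the libraries and the test, and the cause was not tested. At 4 h, the number of the 10 genes called was 2 with DESeq2, 4 with no filter on low counts, 0 in a fit to the 6 libraries compared, 0 with a replicate block, 0 at an adjusted p under 0.01 and 4 without a set of 3 libraries (0 h library 2, 4 h library 3 and 4 d library 1), against 1. Over all genes these settings gave 1339, 1960, 261, 381, 241 and 3192 calls, and the GC and length offset gave 1245, against 790. That offset gave 568 higher and 677 lower (45.6% higher), against 254 and 536 (32.2% higher). With no filter the median of all genes was 0.27 at 4 h and -0.38 for 2 d against 4 h. At 2 d, 3 of the 10 were called with the replicate block, and 2 at an adjusted p under 0.01, which left 2705 of all genes. For 2 d against 4 h the number was 6 with no filter, with either set of 3 libraries left out and with the offset, and 1 at the stricter threshold, with 6725 genes called without the set holding 4 h library 3 and 2711 at the stricter threshold. For 4 d against 2 d it was 5 with no filter, 6 and 5 without the sets holding 4 h libraries 3 and 1, and 1 at the stricter threshold, with 5549 and 1745 genes called.

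Leaving out each library in turn gave 0 to 2 of the 10 genes at 4 h, 2 to 5 at 2 d, 5 to 7 at 4 d, 1 to 4 for 2 d against 4 h, 2 to 4 for 4 d against 2 d and 6 to 8 in the F-test. Over all genes it gave 254 to 1519, 3124 to 4954, 6480 to 7627, 3266 to 5086 and 2110 to 4215 calls in the 5 comparisons. There were 476 at 4 h without 0 h library 2, 340 without 4 h library 1, 254 without 4 h library 2 and 1519 without 4 h library 3, and, for 4 d against 2 d, 2245 and 2110 without 2 d libraries 1 and 2.

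Signs changed only in values that were not called over all libraries. At 4 h, NFKBIE was 0.17 and BCL3 0.0763 without the set holding 4 h library 1, and NFKBIB was 0.20 and NFKBIE 0.27 with the offset. At 2 d, NFKB2 and BCL3 were 0.0297 and 0.0441 by library totals, 0.29 and 0.47 or 0.30 and 0.48 without the sets holding 4 h library 3 or 1, and 0.0577 and 0.27 with the offset, where IKBKB was -0.085. At 4 d, RELA was -0.0766 and -0.0789 without the sets holding 4 h libraries 3 and 1 and -0.23 with the offset. For 2 d against 4 h, RELA was 0.00846 with RLE factors, 0.0542 by library totals, 0.00868 with DESeq2, 0.0154 with no filter, 0.00477 at a mean of at least 1 CPM, 0.0114 with the replicate block and 0.12 without the set holding 4 h library 3. NFKBIA was 0.0144 by library totals and 0.038 without that set, and NFKB1 was -0.0114 without it and -0.0133 with the offset. For 4 d against 2 d, NFKBIB was -0.0593 with the offset. With single libraries left out, NFKBIE at 4 h ran from -0.337 to 0.0534, at 2 d NFKB2 from -0.24 to 0.30, RELB from -0.159 to 0.426 and BCL3 from -0.26 to 0.48, RELA at 4 d from -0.123 to 0.17, and for 2 d against 4 h NFKB1 from -0.0278 to 0.115, RELA from -0.142 to 0.128 and NFKBIA from -0.0758 to 0.0245.

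The replicate block ended the calls of NFKB2 at 4 h (-1.26, edgeR adjusted p = 0.0796), NFKBIA and NFKBIE at 2 d (-0.48 and 0.57, adjusted p = 0.0511 and 0.0901) and BCL3 at 4 d (0.92, adjusted p = 0.0776). Of 18 pairs of same-numbered libraries, 6 had deviations that correlated above 0.1 (-0.81 to 0.67), and 2 of 12 libraries correlated best with their own number. The deviations of 0 h library 2, 4 h library 3 and 4 d library 1 correlated with each other at 0.63 to 0.85. Such differences could mask a shared culture or day, so whether same-numbered libraries share one cannot be told from these values. Depth limits REL, at 54 reads in its lowest library, and RELB, at 86.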
